A study of Homo sapiens with 12 samples.

Results

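HCT116 cells, a human colorectal cancer line, carrying a plasmid for NSE4A were compared with HCT116 cells carrying a plasmid for SMC5. The labels call the groups NSE4 and SMC5, and the genes are NSMCE4A and SMC5. All cells were HCT116 of wild-type genotype, transfected with NSE4A-flag, SMC5-flag or, in the background cells labelled GFP, a control plasmid. The share of cells that took up a plasmid is not given. Transfected cells were divided 24 hours later and given PBS or 1000 nM doxorubicin for 24 hours. The comparison used 8 of the 12 libraries of the series: 2 each of NSE4 with PBS, NSE4 with doxorubicin, SMC5 with PBS and SMC5 with doxorubicin. The 2 libraries of doxorubicin-treated SMC5 cells were nearly the same and were averaged into 1 sample, which left 7 samples, 4 of NSE4 and 3 of SMC5, of 11 in all. The 4 GFP samples, 2 with each treatment, are given beside them as background and entered no test of this comparison.

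SMC5 and NSE4 are subunits of the SMC5/6 complex, a ring of the same family as cohesin and condensin that holds DNA and takes part in repair by homologous recombination and in the handling of stalled replication forks. SMC5 and SMC6 form the long arms of the ring, and NSE4 is the kleisin that bridges their head domains. Doxorubicin poisons topoisomerase II and causes DNA double-strand breaks. Because the plasmids supply different parts of 1 complex, the comparison asks which transcripts depend on which subunit was supplied, with the drug taken as an additive term.

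Depth, estimated from the FPKM value of single fragments, was 13.2 M to 18.6 M per library (M is 1e6 fragments), and FPKM scales fragments to transcript length and library size. The locus that names MT-ATP6, a mitochondrial gene, held 16.6% (GFP replicate 2 with PBS) to 33.0% (NSE4 replicate 1 with PBS) of the summed FPKM. The main fit did not rescale FPKM for this, and its effect on small differences was not tested. Of 57908 loci in the table, 15151 had an FPKM of 1 or more in at least 2 of the 7 samples and were tested. The libraries merged above correlated with a Pearson r of 0.99943, shared 1091 identical values above 0, and had 7 loci above 0 in 1 library alone. The other 5 replicate pairs had 0 identical values and 4216 to 5291 such loci. Separate transfections for replicates are not stated, and PBS and doxorubicin cells of a plasmid came from divided cultures. The p-values therefore cover the variation among these samples alone, and it may be technical. Epithelial markers were present in all 12 libraries, with EPCAM at 120 to 146 FPKM and KRT8 at 1205 to 1799 FPKM, while the intestinal gene VIL1 was at 0.00654 to 2.43 FPKM. Of 20 markers of blood, endothelial, liver and neural cells 6 were tested, and values are given here for SERPINA1, HBA1, SYP, RBFOX3 and GFAP only. Among these, SERPINA1 was at 3.73 to 6.19 FPKM over the 11 samples. The highest values of HBA1, SYP, RBFOX3 and GFAP were 5.71, 4.31, 1.94 and 1.83 FPKM. PTPRC, the pan-leukocyte surface protein, was below the filter and did not exceed 0.0378 FPKM.

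Both plasmid genes were far apart between the groups and in the direction of the labels. NSMCE4A stood at 4069 and 4186 FPKM in NSE4 cells with PBS and at 5283 and 6287 FPKM with doxorubicin. It stood at 43.1 and 32.6 FPKM in SMC5 cells with PBS and at 37.5 FPKM with doxorubicin, so the groups did not overlap. The log2 difference on the log2(FPKM + 1) scale, NSE4 minus SMC5, was 6.94 (95% interval 6.61 to 7.26, limma adjusted p = 3.0e-06). GFP cells held 68.7 and 74.8 FPKM of NSMCE4A with PBS and 85.7 and 89.4 FPKM with doxorubicin. All 3 SMC5 samples lay below all 4 GFP samples, a difference of -1.06 on the log2 scale that is given as a description without a test.

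SMC5 stood at 875 and 979 FPKM in SMC5 cells with PBS and at 811 FPKM with doxorubicin. It stood at 10.3 and 19.0 FPKM in NSE4 cells with PBS and at 8.63 and 34.4 FPKM with doxorubicin, again without overlap. The log2 difference was -5.75 (95% interval -6.77 to -4.73, limma adjusted p = 0.0104). The adjusted p was 0.0537 without NSE4 replicate 2 and 0.0634 without the merged SMC5 doxorubicin sample. The GFP values of SMC5 were 33.5 and 8.76 FPKM with PBS and 18.6 and 7.02 FPKM with doxorubicin, so NSE4 and GFP cells overlapped. In both groups of cells the level of SMC5 was spread widely between replicates.

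Both plasmid genes have sequence copies, and a stretch of NSMCE4A and its copy is shown because it carries bases by which a read can tell them apart. NSMCE4A lies on chromosome 10 (GRCh38 chr10:121957088-121975217, minus strand). A processed pseudogene, AC006557.5 on chromosome 18, aligns to its longest coding transcript over 826 columns with 86.4% identity. The 60 bases below begin at base 421 of that transcript, within the coding part, and capitals mark the 6 bases that differ.

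NSMCE4A: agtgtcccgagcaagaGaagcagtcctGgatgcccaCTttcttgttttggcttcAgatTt

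AC006557.5: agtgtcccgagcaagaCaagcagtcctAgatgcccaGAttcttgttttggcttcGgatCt

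AC006557.5 was listed at 0 in all 12 libraries. So was AC023538.1, a processed pseudogene 95.8% identical to SMC5 over 737 columns. AL731566.1, a locus antisense to NSMCE4A with shared exon sequence, ranged from 0.654 to 1.46 FPKM over the 12 libraries and did not follow the plasmid. SMC5-AS1 ranged from 0.101 to 0.309 FPKM.

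The other 7 members of the complex and its loaders did not pass the test. SMC6, the partner of SMC5 in the ring, was at 8.99 to 10.8 FPKM in NSE4 samples and 9.86 to 10.5 FPKM in SMC5 samples. Its log2 difference was -0.04 (95% interval -0.25 to 0.17). NSMCE1, the RING-finger subunit, differed by 0.13 (-0.09 to 0.35). NSMCE2, the SUMO ligase that docks on the SMC5 arm, differed by -0.03 (-0.24 to 0.18). NSMCE3, which pairs with NSMCE1, differed by -0.09 (-0.34 to 0.15). EID3, a paralog of NSMCE4A, was low at 0.650 to 1.62 FPKM and differed by -0.16 (-0.58 to 0.27). SLF1 and SLF2, which bring the complex to damaged DNA, differed by -0.09 (-0.41 to 0.24) and -0.07 (-0.27 to 0.12). All 7 intervals lay within 1 log2 unit of 0.

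**Figure D1:**
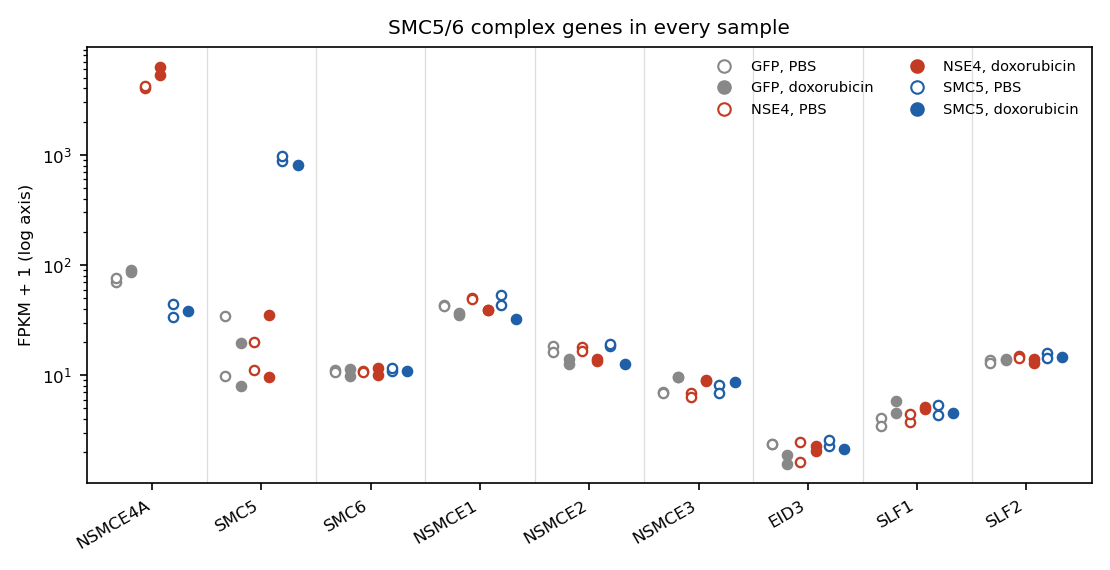
FPKM plus 1 (log axis) of 9 SMC5/6 genes in 11 samples, with 1 point per sample, open for PBS and filled for doxorubicin. NSMCE4A is at 4069 or more in the NSE4 samples and SMC5 is between 811 and 979 in the SMC5 samples, while the points of the other 7 genes overlap between plasmids.

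Across all loci, 5 of 15151 passed (0.033%), 3 higher in NSE4 cells (0.0198%) and 2 higher in SMC5 cells (0.0132%), and 447 had an unadjusted p under 0.05. The doxorubicin term of the same fit passed at 6959 loci (45.9%), 3732 higher (24.6%) and 3227 lower (21.3%). The median standard error of the plasmid difference was 0.118. Its 95% interval lay within 1 log2 unit of 0 at 14290 loci (94.3%), and at 7288 of the 7428 loci (98.1%) with a mean of 10 FPKM or more. The 5 loci were the plasmid genes and 3 others, MT1DP, AC010761.6 and AC110792.4. Without NSE4 replicate 2 the count was 2, without SMC5 replicate 1 or replicate 2 it was 10, and without either doxorubicin-treated NSE4 sample it was 8.

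**Figure D2:**
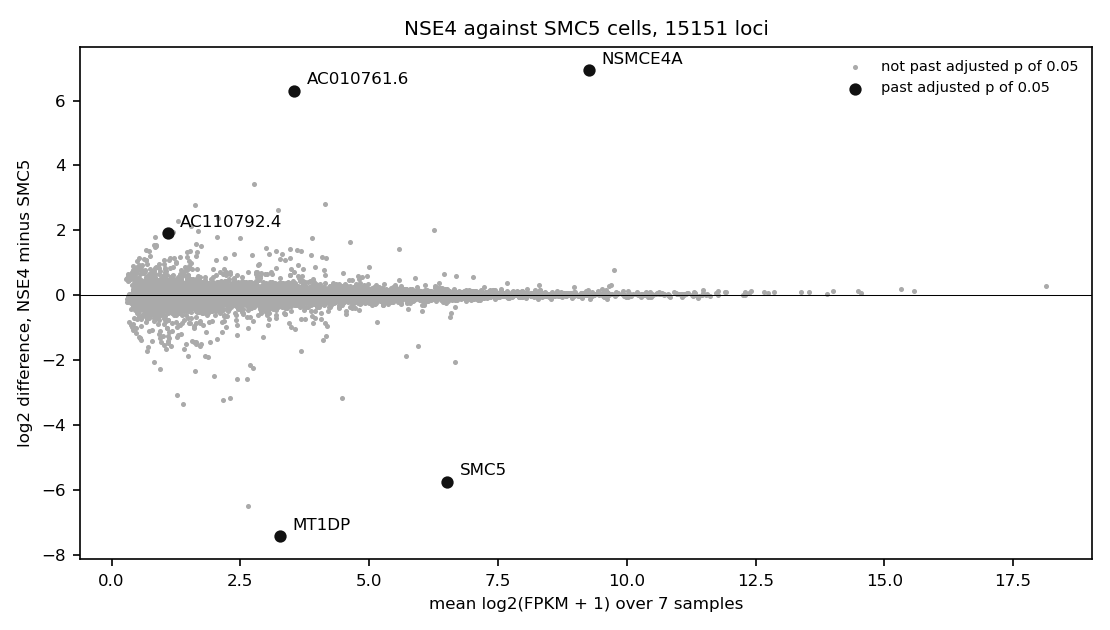
Log2 difference NSE4 minus SMC5 (y) against mean log2(FPKM + 1) over 7 samples (x) for 15151 loci, with loci past an adjusted p of 0.05 in black. The 5 named points, from 6.94 for NSMCE4A to -7.42 for MT1DP, are those past the threshold, and AC110792.4 lies among low loci that are not.

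Of the other 3 loci, the sequence of MT1DP is shown because it is short and shares bases with its relatives. MT1DP is a pseudogene of the metallothionein cluster, a family of small metal-binding proteins, at GRCh38 chr16:56643705-56644786 on the plus strand. Capitals mark bases that lie in a word of 25 bases also found in transcripts of other genes, on either strand.

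MT1DP: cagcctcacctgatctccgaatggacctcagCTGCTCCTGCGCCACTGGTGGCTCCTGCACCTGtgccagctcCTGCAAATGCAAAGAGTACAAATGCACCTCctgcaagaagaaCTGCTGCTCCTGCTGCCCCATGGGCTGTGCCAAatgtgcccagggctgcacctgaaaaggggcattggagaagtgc

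The transcript of MT1DP is 191 bases long, and 96 of them (50.3%) lie in words shared with 4 other genes, MT1A, MT1L, MT1P3 and MT1CP. It aligns to MT1E with 86.8% identity over 114 columns. Of the tested loci with a known length, 211 (1.44%) have a longest transcript under 300 bases. FPKM divides by length, so a short transcript reaches a high value with few fragments, and a value of 0 may be a failed estimate.

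MT1DP was listed at 0 in all 4 NSE4 samples. It was at 332 and 441 FPKM in SMC5 cells with PBS and at 50.3 FPKM with doxorubicin (limma adjusted p = 0.0104). In GFP cells it was at 173 FPKM in replicate 1 with PBS and at 0 in the other 3 samples. No fold is given against a group listed at 0. MT1DP met the filter on low values through the SMC5 samples alone, and AC010761.6 and AC110792.4 through the NSE4 samples alone, so a locus kept in this way had to differ and their p-values are given as a description. The adjusted p was 0.819 with all 11 samples in the fit, 0.0614 with the replicate number as a block and 0.0537 without NSE4 replicate 2. MT2A and MT1E overlapped between the plasmids within each treatment. With PBS, MT2A was at 1037 and 1345 FPKM in NSE4 cells and at 1030 and 1225.5 FPKM in SMC5 cells. MT1E was at 89.0 and 182 FPKM against 132 and 127 FPKM. With doxorubicin the NSE4 and SMC5 libraries held 438 and 542 against 442 and 510 FPKM of MT2A. For MT1E they held 158 and 167 against 160 and 188 FPKM. MT1F overlapped with PBS, but with doxorubicin was at 11.9 and 12.4 FPKM against 8.91 and 10.5 FPKM. MT1A, MT1G and MT1JP were listed at 0 throughout.

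AC010761.6, annotated as an antisense transcript, was at 226 and 51.3 FPKM in NSE4 cells with PBS and at 53.7 and 43.8 FPKM with doxorubicin. It was listed at 0 in all 3 SMC5 and all 4 GFP samples (limma adjusted p = 0.0104). AC110792.4, which the annotation used here does not name and which was singled out after its values were seen, was at 3.25 and 2.29 FPKM in NSE4 cells with PBS and at 3.09 and 2.42 FPKM with doxorubicin. It was listed at 0 in every SMC5 and GFP sample (limma adjusted p = 0.0104). Its adjusted p was 0.0618 without NSE4 replicate 1, 0.0537 without NSE4 replicate 2 and 0.0942 without the merged SMC5 sample. Both loci were above 0 in the 4 NSE4 samples alone of the 11.

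AF228730.6, a pseudogene singled out after its values were seen, came next by p. It was at 29.1 and 19.7 FPKM in NSE4 cells with PBS and at 22.2 and 6.85 FPKM with doxorubicin, against 0.690, 0.647 and 1.04 FPKM in SMC5 samples. GFP samples were at 0.379 to 0.958 FPKM. AF228730.6 met the filter on low values through the NSE4 samples, as SMC5 samples reached 1 FPKM only with doxorubicin. Its interval and p-values are therefore given as a description. The groups did not overlap, and the log2 difference of 3.43 (95% interval 2.47 to 4.39) had a limma adjusted p of 0.143. That p was 0.00194 without NSE4 doxorubicin replicate 2 and 0.545 without NSE4 replicate 2.

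Among loci with a mean of 10 FPKM or more, 40 differed by over 1 log2 unit. Of these, 9 did not overlap the same way in both treatments, against 1075 of all 15151 loci (7.1%), and 4 passed, against 5 of all. Loci picked for a large difference are more apt to be without overlap. In 10 of the 40 the highest of the 7 samples was more than 5 times the next. Over all 15151 loci this was so at 28, with a highest value of 10 FPKM or more. CC2D1B was at 604 FPKM in NSE4 replicate 1 and at 10.6 to 16.2 FPKM in the other 6 samples. NEDD4L, a ubiquitin ligase, was at 574 FPKM in NSE4 replicate 2 and at 21.6 to 42.5 FPKM in the others. The locus that names BRCA1, the recombination factor, with 3 other symbols was at 172 FPKM in NSE4 replicate 2 and at 6.09 to 11.1 FPKM in the others. Its log2 difference was 1.23 (95% interval -1.13 to 3.58), and -0.11 without that library. These 3 loci were picked for their values, and their large differences rest on 1 library each.

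**Figure D3:**
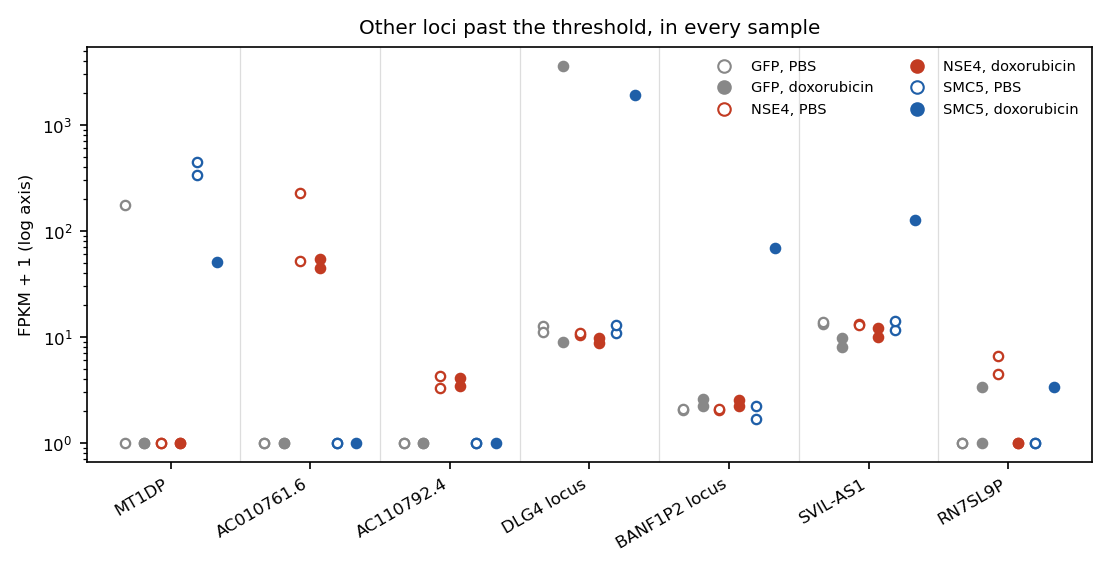
FPKM plus 1 (log axis) in 11 samples, with 1 point per sample, for 3 loci past the threshold for the plasmid and 5 past it for a doxorubicin-dependent difference (MT1DP is in both sets). AC010761.6 and AC110792.4 are above 0 in the NSE4 samples alone, and the DLG4 locus is high in 1 GFP sample (3594 FPKM) as well as in the merged SMC5 doxorubicin sample (1929 FPKM).

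Whether the NSE4 to SMC5 difference depended on doxorubicin was tested with an interaction term, in which the SMC5 doxorubicin group is 1 sample, assumed to vary like the samples of the other groups. It passed at 5 of 15151 loci (0.033%), and 395 had an unadjusted p under 0.05. With the replicate number as a block it passed at 1. A high value in that sample alone is enough for a call, so these loci have no replicate check in SMC5 cells with doxorubicin. The locus of DLG4, a synaptic scaffold gene, was at 9.50 and 9.88 FPKM in NSE4 cells with PBS and 7.72 and 8.80 FPKM with doxorubicin. The SMC5 values were 9.90 and 11.8 FPKM with PBS and 1929 FPKM with doxorubicin. GFP cells with doxorubicin were at 3594 and 7.87 FPKM, so a value of this size was also met in 1 of 2 control replicates. The locus of AL360181.1 and BANF1P2 was at 68.0 FPKM in the SMC5 doxorubicin sample and at 0.690 to 1.59 FPKM in the other 10 samples. SVIL-AS1 was at 125 FPKM there and at 7.08 to 13.2 FPKM elsewhere. RN7SL9P, a pseudogene of the signal recognition particle RNA, was at 3.50 and 5.58 FPKM in NSE4 cells with PBS. It was at 2.40 FPKM in the SMC5 doxorubicin sample and 2.38 FPKM in 1 GFP sample, and at 0 elsewhere. RN7SL9P met the filter on low values only through the groups where it is high, so its call is given as a description. MT1DP is the fifth, lower in SMC5 cells with doxorubicin than with PBS. Neither NSMCE4A (interaction 0.48, SE 0.24) nor SMC5 (0.49, SE 0.92) passed.

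Over the whole profile NSE4 and SMC5 samples were no further apart than replicates, but the kinds of pair are not alike in replicate number. The median size of the log2 difference over tested loci was 0.124 to 0.164 in 6 pairs of an NSE4 and an SMC5 sample of the same treatment. It was 0.151 to 0.182 in 5 replicate pairs, which share 1 plasmid and treatment, and 0.352 to 0.382 in 12 pairs of a PBS and a doxorubicin sample. Replicate pairs always differ in replicate number. NSE4 and SMC5 pairs with PBS were at 0.163 and 0.164 with different numbers, and at 0.124 and 0.136 with the same number. The pairs with doxorubicin hold the merged sample. GFP samples were 0.126 to 0.180 from NSE4 samples and 0.124 to 0.159 from SMC5 samples. The first principal component, with 55.5% of the variance, separated the treatments. On the second, with 10.9%, the plasmids overlapped, with SMC5 samples at -20.3 to 0.843 and NSE4 samples at -13.3 to 33.5. On the third, with 9.72%, the 3 SMC5 samples lay at 13.0 to 21.0 and the 4 NSE4 samples at -24.9 to -1.71. The components were taken over all tested loci, which include the plasmid genes and loci that met the filter through 1 plasmid alone. A split by plasmid is therefore in part built in and is given as a description.

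**Figure D4:**
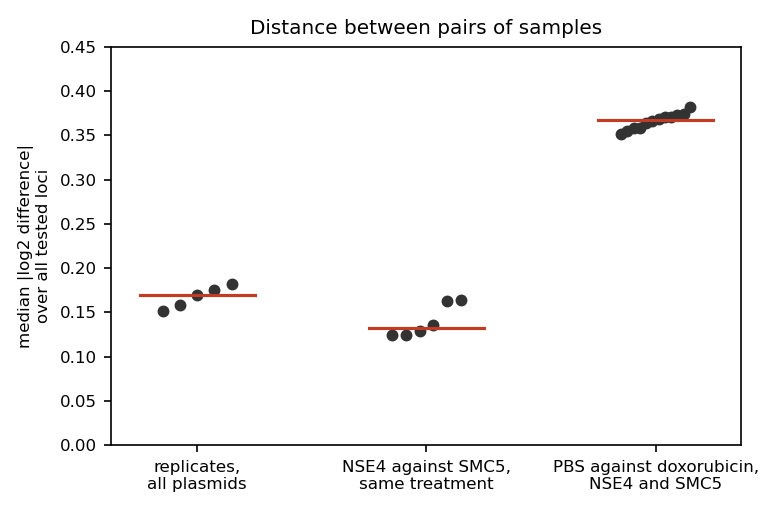
Median size of the log2 difference over 15151 loci (y) for pairs of samples in 3 classes (x), with 1 point per pair and a line at the class median. Pairs of an NSE4 and an SMC5 sample (0.124 to 0.164) overlap replicate pairs (0.151 to 0.182), and pairs that differ in treatment lie at 0.352 or above. Replicate pairs always differ in replicate number, and pairs of an NSE4 and an SMC5 sample do so only in part.

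Gene groups were then read against that background. Over all loci 0.033% passed, so a list of this size with 0 past the threshold does not stand apart from all loci. Differences above 0 were found at 7906 of all 15151 loci. The 32 lists hold 618 members, of which 8 have no locus, 79 share a locus with another coding gene, 47 were below the filter and 484 were tested at 476 loci. Of these 476, 2 passed, NSMCE4A and SMC5, and 467 had an interval within 1 log2 unit of 0. The samples of the plasmids did not overlap, the same way in both treatments, at 28 of the 476 loci (5.88%), against 1075 of all 15151 (7.1%). An unadjusted p under 0.05 was found at 8 of the 476 (1.68%), against 2.95% of all loci. Besides the plasmid genes these were APAF1, DDX60, WDR12, EPB41L4A-AS1, the ZFAS1 locus and HBA1. Doxorubicin passed at 288 of the 476 (60.5%, against 45.9% of all loci), 134 higher and 154 lower. The shares without overlap and with an unadjusted p under 0.05 were thus not above those of all loci, and the 2 that passed are the genes on the plasmids.

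Other complexes of the SMC family and the repair pathways did not pass. In cohesin and condensin 0 of 20 loci passed, with a median difference of 0.00 and a range of -0.10 to 0.14, against a median of 0.01 over all loci. NIPBL, the cohesin loader, differed by -0.10 (95% interval -0.31 to 0.11), and MAU2, its binding partner, by 0.14 (-0.16 to 0.44). In non-homologous end joining 0 of 9 passed, and XRCC4, the ligase cofactor, differed by -0.15 (-0.35 to 0.05). In homologous recombination and the Fanconi pathway 0 of 22 passed, with a median of 0.09. Of these, 16 of 22 were above 0, against 7906 of all 15151 loci. The largest difference in the list, 1.23 at the BRCA1 locus, rests on NSE4 replicate 2. FANCM, a fork-remodelling translocase, was at 2.04 and 2.61 FPKM in NSE4 cells with PBS and 3.04 and 4.15 FPKM with doxorubicin. In SMC5 cells it was at 1.92 and 1.62 FPKM, and 2.45 FPKM with doxorubicin, a difference of 0.32 (-0.0045 to 0.64) without overlap in either treatment. The RBBP8 locus, which encodes the end-resection factor CtIP, differed by 0.35 (-0.03 to 0.72), and EXO1, a resection nuclease, by 0.28 (-0.09 to 0.66). Without NSE4 replicate 2 those differences were 0.17 and 0.10.

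The p53 targets passed for doxorubicin and not for the plasmid. Doxorubicin passed at 28 of 28 loci, 27 higher and 1 lower, with a median of 1.48, against 45.9% of all loci, with 24.6% of all loci higher and 21.3% lower. By contrast 0 of 28 passed between NSE4 and SMC5, with a median of 0.02 and a range of -0.09 to 0.20. The MDM2 locus, which encodes the ubiquitin ligase of p53, was at 69.7 and 86.6 FPKM in NSE4 cells with PBS and 394 and 339 FPKM with doxorubicin. SMC5 cells were at 70.8 and 57.2 FPKM, and 372 FPKM with doxorubicin. The plasmid difference of MDM2 was 0.16 (95% interval -0.13 to 0.45) beside a doxorubicin term of 2.34. The FAS locus, a death receptor, differed by 0.20 (-0.07 to 0.48) and BTG2, an antiproliferative gene, by 0.08 (-0.08 to 0.25).

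Of the pro-apoptotic BCL2 family and caspases 0 of 16 passed for the plasmids. APAF1, the scaffold of the apoptosome, was at 6.50 and 7.10 FPKM in NSE4 cells with PBS and 19.8 and 19.8 FPKM with doxorubicin. The SMC5 values were 8.85 and 8.83 FPKM, and 24.2 FPKM with doxorubicin, above the NSE4 samples in both treatments. The difference was -0.31 (95% interval -0.48 to -0.14, limma adjusted p = 1.0). GFP cells held 7.35 and 7.36 FPKM with PBS and 19.9 and 19.4 FPKM with doxorubicin. BAX, the pore-forming effector, differed by -0.09 (-0.36 to 0.18). Among 6 anti-apoptotic loci 0 passed, and BIRC3 and BCL2L1 differed by -0.20 (-0.61 to 0.20) and 0.07 (-0.08 to 0.23).

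Cell-cycle genes did not pass either. In G1/S and DNA replication 0 of 22 passed, with a median of 0.05, and RRM1, the ribonucleotide reductase subunit, differed by 0.16 (-0.19 to 0.51) and MCM4, a helicase subunit, by 0.17 (-0.41 to 0.74). Without NSE4 replicate 2 those differences were -0.02 and -0.13. In G2/M and mitosis 0 of 18 passed, with a median of -0.04 and 4 of 18 above 0, against 7906 of all 15151 loci. TOP2A, the target of doxorubicin, was at 25.8 and 30.6 FPKM in NSE4 cells with PBS and 26.3 and 26.8 FPKM with doxorubicin. In SMC5 cells it was at 30.8 and 29.9 FPKM, and 32.6 FPKM with doxorubicin, and the groups overlapped with PBS. The difference was -0.18 (-0.38 to 0.03). BUB1, a spindle checkpoint kinase, differed by -0.14 (-0.32 to 0.04) and CENPF, a kinetochore protein, by -0.23 (-0.54 to 0.09).

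Among interferon-stimulated genes 0 of 27 passed, with a median of -0.04 and 10 of 27 above 0, against 7906 of all 15151 loci. DDX60, an antiviral helicase, was at 4.33 and 4.32 FPKM in NSE4 cells with PBS and 3.06 and 3.99 FPKM with doxorubicin. SMC5 cells were at 5.33 and 6.22 FPKM, and 5.59 FPKM with doxorubicin, without overlap. The difference was -0.43 (95% interval -0.70 to -0.16, limma adjusted p = 1.0). GFP samples were at 3.38 and 3.17 FPKM with PBS and 5.05 and 2.99 FPKM with doxorubicin. OASL differed by -0.10 (-0.33 to 0.12) and the interferon IFNL1 by 0.12 (-0.22 to 0.45). Set beside GFP cells, the list's median was 0.17 for NSE4 and 0.18 for SMC5, values that share their controls and have no test here. In NF-kB targets and chemokines 0 of 14 passed, with CXCL1 at 0.31 (-0.12 to 0.74) and TNFAIP2 at -0.21 (-0.49 to 0.08).

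Lists of growth and metabolism gave small medians, and their counts above 0 stand beside 7906 of all 15151 loci. Of the cytosolic ribosomal proteins 0 of 39 passed, with 34 above 0 and a median of 0.03, which was -0.02 under quantile normalization. RPL38 differed by 0.12 (-0.02 to 0.27) and RPS27 by 0.10 (-0.02 to 0.23). Of the 13 mitochondrially encoded mRNAs, 5 share a locus with another coding gene and 8 were tested. All 8 were above 0 and none passed, with a median of 0.10, or 0.01 under quantile normalization. MT-ND1, a complex I subunit, differed by 0.17 (-0.05 to 0.39). In glycolysis and hypoxia 1 of 22 was above 0 and 0 passed, with a median of -0.06, or -0.095 under quantile normalization. VEGFA, the angiogenic factor, differed by -0.16 (-0.44 to 0.12). In cholesterol synthesis 0 of 17 passed for the plasmids and 16 fell with doxorubicin, against 21.3% of all loci.

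The immediate early genes (0 of 21), heat shock proteins (0 of 12), NRF2 targets (0 of 17) and ribosome biogenesis genes (0 of 17) did not pass. MYC, the growth regulator, differed by 0.07 (-0.09 to 0.23), HSPH1, a chaperone, by 0.14 (-0.06 to 0.35) and AKR1B10, an aldo-keto reductase, by 0.16 (-0.12 to 0.44). WDR12, a ribosome assembly factor, was at 29.8 and 29.4 FPKM in NSE4 cells with PBS and 26.1 and 25.5 FPKM with doxorubicin. The SMC5 values were 36.1 and 33.1 FPKM, and 28.6 FPKM with doxorubicin, again higher in both treatments. The difference was -0.19 (-0.35 to -0.03, limma adjusted p = 1.0). POLR1A, the large subunit of RNA polymerase I, differed by 0.22 (-0.03 to 0.47), and the splicing factor SRSF4 by 0.24 (-0.10 to 0.57).

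Small nucleolar RNA host genes gave 2 of 12 with an unadjusted p under 0.05 and 0 past the threshold. EPB41L4A-AS1 was at 39.2 and 40.2 FPKM in NSE4 cells with PBS and 31.2 and 23.7 FPKM with doxorubicin. In SMC5 cells it was at 31.1 and 36.5 FPKM, and 18.6 FPKM with doxorubicin, lower in both treatments. The difference was 0.35 (95% interval 0.06 to 0.64, limma adjusted p = 1.0). The ZFAS1 locus differed by 0.16 (0.01 to 0.31). EPCAM differed by 0.08 (-0.05 to 0.21) and CDX2, the intestinal transcription factor, by -0.19 (-0.66 to 0.28). HBA1, an alpha globin gene and the sole tested blood or endothelial marker, was at 1.45 and 1.41 FPKM in NSE4 cells with PBS and 4.86 and 5.38 FPKM with doxorubicin. SMC5 cells were at 0.799 and 0.971 FPKM, and 3.65 FPKM with doxorubicin, a difference of 0.38 (0.13 to 0.63). GFP cells with PBS were at 0.808 and 1.72 FPKM, a range wider than that over the 4 NSE4 and SMC5 samples with PBS.

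**Figure D5:**
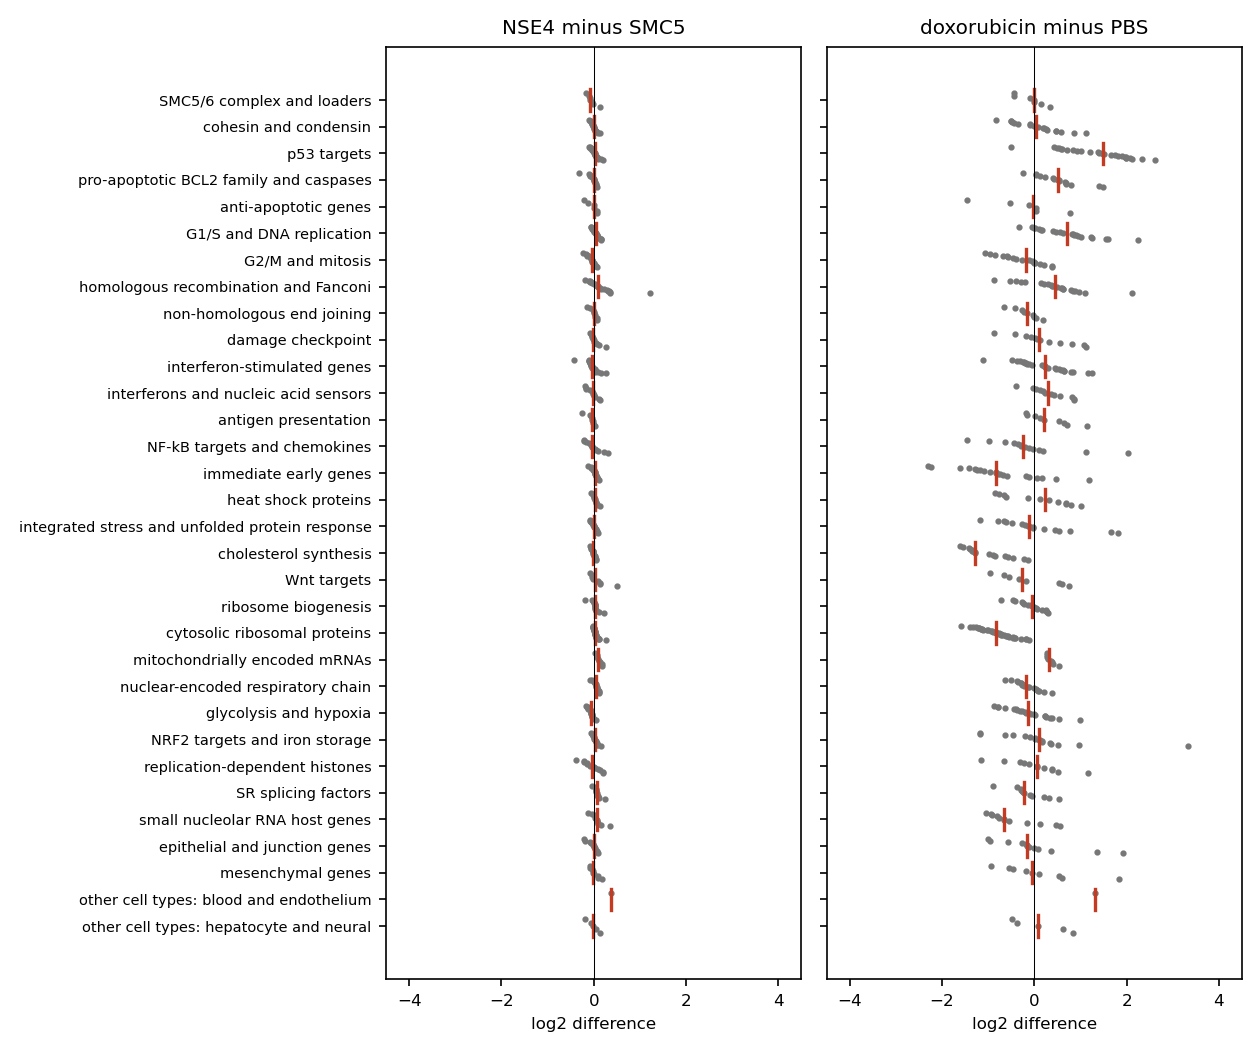
Log2 difference (x) of each tested member of 32 gene lists (y), for NSE4 minus SMC5 (left) and doxorubicin minus PBS (right), without NSMCE4A and SMC5. Points are loci and red bars are list medians. For lists with at least 5 tested loci the medians lie between -0.07 and 0.10 on the left and between -1.29 and 1.48 on the right.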

How the data were processed

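RNA was sequenced from 12 libraries of HCT116 cells. TopHat and Cufflinks are named in the submitters' processing notes, without versions. No genome build is given in the sources used here. The deposited table gives FPKM per locus, and all 12 columns were used. GENCODE 29 (GRCh38) served for gene names, types, lengths, GC content, sequences and the coordinates printed, which are not those of the table. FPKM holds no counts, so log2(FPKM + 1) was tested with limma 3.58.1 in R 4.3.3, with an intensity trend, a plasmid and a doxorubicin term, and 4 residual degrees of freedom. Loci needed 1 FPKM in at least 2 of 7 samples. P-values were adjusted by Benjamini-Hochberg over 15151 loci, with a threshold of 0.05, and a second fit added the interaction. Loci that name several coding genes were left out of the lists. The test was checked on simulated data. Shared words of 25 bases were counted in all GENCODE transcripts. Some sequences and genes are not reported here. Tables were made with pandas 2.3.3 in Python 3.11.15, and figures with matplotlib 3.10.9.

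The members and lists were chosen with earlier results of these data known. Named genes were the SMC5/6 genes, up to 12 called loci each way of at least 5 FPKM without overlap, up to 4 list members of smallest p per list (a selection of them is printed) and every locus called for the interaction. Counts of the doxorubicin term, the loci without overlap and the single-library values, and the rank correlation of replicate differences, were decided after the data were seen. Alternatives were 2 scalings, a pseudocount of 0.1, 2 filters, no intensity trend, coding loci alone, a GC adjustment, all 11 samples, 2 unmerged SMC5 doxorubicin samples, no doxorubicin term, a replicate block and each sample left out.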

Additional observations from a re-analysis of the deposited data

Results flagged for a closer look

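At 5 loci the NSE4 to SMC5 difference with doxorubicin departed from that with PBS in the interaction test (limma, adjusted over 15151 loci), and the SMC5 doxorubicin group is 1 sample in each. That sample is assumed to vary like those of the other groups, so these p-values hold no replicate check of its value. RN7SL9P and MT1DP met the filter on low values only through the groups where they are high, so their calls are given as a description. The interaction of RN7SL9P also depends on the pseudocount and was -10.1 with a pseudocount of 0.1. The interaction is the log2 difference NSE4 minus SMC5 with doxorubicin, minus that with PBS. It was -7.56 at the locus of AC120057.5 and DLG4 (adjusted p = 0.00016), which was called in 16 of 17 alternatives and had an adjusted p of 1 with the GFP samples in the fit. It was -4.95 at the locus of AL360181.1 and BANF1P2 (adjusted p = 0.0115), called in 9 of 15 alternatives. It was -3.55 at SVIL-AS1 (adjusted p = 0.0172), called in 9 of 16. It was -4.21 at RN7SL9P (adjusted p = 0.0493), called in 5 of 14. It was 2.90 at MT1DP (adjusted p = 0.0493), called in 5 of 16 alternatives and in 0 of the 6 that left out a sample, and this value depends on the pseudocount because all NSE4 samples are listed at 0.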

How the results depend on the processing

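NSMCE4A passed in all 19 alternatives, SMC5 in 16 of 19, AC010761.6 in 17 of 18, MT1DP in 14 of 18 and AC110792.4 in 12 of 16. AC010761.6, MT1DP and AC110792.4 met the filter on low values only through the group where they are high. Their counts are therefore given as a description and are no check of these calls. With no filter on low values each of them had a limma adjusted p of 0.0801, as did SMC5. Of 5 called loci for the plasmids, 1 was called with no filter on low values and 2 among coding loci alone, where fewer loci can be called. Leaving out 1 sample gave 2 to 10. For the interaction the count of 5 became 1 with no filter, 2 with all 11 samples and 17 with the SMC5 doxorubicin columns as 2 samples, and leaving out 1 sample gave 1 to 16. It could not be fitted without the SMC5 doxorubicin sample. With a replicate block the counts were 4 and 1. Whether replicate numbers pair samples is not stated and was not tested. The Pearson correlation of replicate differences among the compared groups was -0.0273 to 0.0802 and Spearman's rho 0.103 to 0.204. Same-numbered NSE4 and SMC5 samples with PBS lay nearer (0.124 and 0.136) than the others (0.163 and 0.164). With GFP samples and both treatments included, unmerged samples of different plasmids and the same treatment and number lay 0.124 to 0.143 apart. With different numbers such samples lay 0.153 to 0.180 apart, without overlap between the ranges. Where a cause of these moves is not named, the cause was not tested.

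Among named genes, 15 values changed sign, none of them of a called locus. NSMCE2 was 0.00048 with the SMC5 doxorubicin columns as 2 samples. BCL2L1, OASL, MYC and VEGFA were -0.015, 0.091, -0.041 and 0.00599 with no doxorubicin term. The rest changed sign when 1 sample was left out, over the ranges -0.13 to 0.034 for NSMCE2, -0.27 to 0.019 for EID3, -0.24 to 0.034 for SLF1, -0.016 to 0.29 for RRM1, -0.13 to 0.42 for MCM4, -0.49 to 0.00092 for CDX2, -0.11 to 2.20 for the BRCA1 locus and -0.038 to 2.78 for CC2D1B. The depth of 13.2 M to 18.6 M fragments (M is 1e6) and 7 samples limit small differences, and loci of few fragments are least certain.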
